A study of Homo sapiens with 17 samples.

Results

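Macrophage lineage genes were followed in human cells differentiated toward cardiomyocytes or toward the pacemaker of the heart. The set held 34 genes of 20218 in the expression table, taken by symbol. Some of the 34 had been chosen by their FPKM, because it was higher at day 40 than at day 25, so every level or difference that involves day 40 libraries is given for them as a description, without a test. Of the 34, 33 reached at least 1 FPKM (fragments per kilobase of transcript, scaled to the mapped fragments of a library) in at least 2 libraries and were tested at day 25. The exception was MRC1. FCGR1A and GPR65 passed only through the GFP+mCherry+ libraries of day 40.

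The cells came from H9, an established human embryonic stem cell line, and carried a GFP reporter of SHOX2, a transcription factor of the sinoatrial node, together with an mCherry reporter whose gene the labels do not name. All groups shared this reporter line, and no group was treated with a test drug as far as the labels say. Cells were sorted into GFP+mCherry+, with 3 libraries from day 25 and 2 from day 40, and into GFP-mCherry+ and GFP-mCherry-, each with 3 libraries from either day. The growth protocol gives a cardiomyocyte procedure with CHIR99021, BMP4, Activin A and XAV939, and a sinoatrial one with cucurbitacin, retinoic acid, SU5402, XAV939, Tyrphostin AG 490 and chidamide, and does not say which sorted population came from which. Nothing in the labels says that libraries of a group came from separate differentiations, so the p-values measure a spread between libraries that could be technical only. Libraries are named by the number that opens their titles.

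Macrophages arise from blood progenitors under the transcription factor PU.1, the product of SPI1. They depend on the receptor CSF1R, which is bound by the growth factors CSF1 and IL34. Activating receptors on their surface signal through small adaptors with ITAM motifs, TYROBP and FCER1G. The heart holds resident macrophages, including in its conduction tissue, where they remove debris and contact muscle cells.

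PU.1 binds DNA at a core that reads GAGGAA, and most strongly where GT follows (background). RefSeq promoter windows of GRCh38.p14, the 250 bases before each annotated start, were found for 27 of the 34 genes and not for SPI1, C1QC, MRC1, MSR1, SRGN, CTSS and LYZ. The letters GAGGAA, on either strand, stood in 21 of the 41 windows of these genes (51.2%) and in 23.6% of all 35116 windows. The longer GAGGAAGT, which contains GAGGAA and so overlaps it, stood in 5 of the 41 (12.2%) and in 2.17% of all windows. It belonged to 4 genes, TYROBP, CD53, LST1 and AIF1. Windows of a gene with several starts can overlap, and a match is a description of the letters, with no test of binding. Windows of TYROBP (chr19:35908296-35908545, minus strand), CD53 (chr1:110872898-110873147, plus strand) and LST1 (chr6:31586449-31586698, plus strand) are shown because they hold the longer motif and no annotated exon. The window before the downstream start of CSF1R overlaps an annotated exon by 53 bases. Its last 30 bases (chr5:150086555-150086584, minus strand) are shown because they hold GAGGAA back to back. Each reads 5′ to 3′ toward the gene, and capitals mark the motifs, written as TTCCTC or ACTTCCTC where they lie on the other strand.
TYROBP: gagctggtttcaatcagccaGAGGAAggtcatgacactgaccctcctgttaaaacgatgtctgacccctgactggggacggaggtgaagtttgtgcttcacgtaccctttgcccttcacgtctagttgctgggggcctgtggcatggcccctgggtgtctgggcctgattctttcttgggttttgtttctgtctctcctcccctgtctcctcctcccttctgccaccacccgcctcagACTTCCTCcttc
CD53: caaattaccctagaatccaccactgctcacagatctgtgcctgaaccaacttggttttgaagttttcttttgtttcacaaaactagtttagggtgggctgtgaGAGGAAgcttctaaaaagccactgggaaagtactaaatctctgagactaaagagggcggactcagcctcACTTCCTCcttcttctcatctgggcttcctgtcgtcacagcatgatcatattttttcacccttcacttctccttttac
LST1: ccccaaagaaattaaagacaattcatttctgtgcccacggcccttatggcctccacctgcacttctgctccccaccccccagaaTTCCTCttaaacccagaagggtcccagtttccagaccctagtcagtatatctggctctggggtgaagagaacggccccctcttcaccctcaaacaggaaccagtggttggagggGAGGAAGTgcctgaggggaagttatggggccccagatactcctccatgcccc
CSF1R: gcccaaggagGAGGAAGAGGAAaacaagac
In CSF1R the 2 copies began 20 and 14 bases before it.

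The labels were checked against marker levels. SHOX2 was at 49.0 to 139 FPKM in the 3 GFP+mCherry+ libraries of day 25 and at 58.5 to 90.2 in the 2 of day 40, and at no more than 2.41 in any other library. The pacemaker channel gene HCN4 did not follow GFP, at 31.4 to 46.1 FPKM in GFP+mCherry+ and 35.0 to 55.1 in GFP-mCherry+ cells at day 25. Summed cardiomyocyte markers ran from 598 to 2642 FPKM in GFP-mCherry- cells and from 5618 to 27104 in the mCherry+ populations. Genes at 1 FPKM or more numbered 12944 to 13793 per library. Read depth was not given in the sources used here, so no counting error could be attached to a value, and in these sorted bulk samples fewer cells of a type and less RNA per cell cannot be told apart.

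Libraries stood apart within their groups for the macrophage genes. Library 8, a GFP-mCherry+ library of day 25, had 1 of the 34 genes at 1 FPKM or more and 7 listed at 0, where the other 8 libraries of day 25 had 14 to 24 at that level. Summed without SPP1, the 34 genes came to 5.90 FPKM in library 8 and to 43.4 to 79.1 in the rest of day 25. Library 10, GFP+mCherry+ at day 40, came to 1281 FPKM and library 13, the other of its group, to 550. GFP-mCherry+ libraries of day 40 came to 152, 184 and 260 FPKM, and GFP-mCherry- libraries of day 40 to 95.1, 108 and 111. Day 40 was thus above day 25 in each population in this sum, with no test because the day 40 level chose some of the genes.

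**Figure D1:**
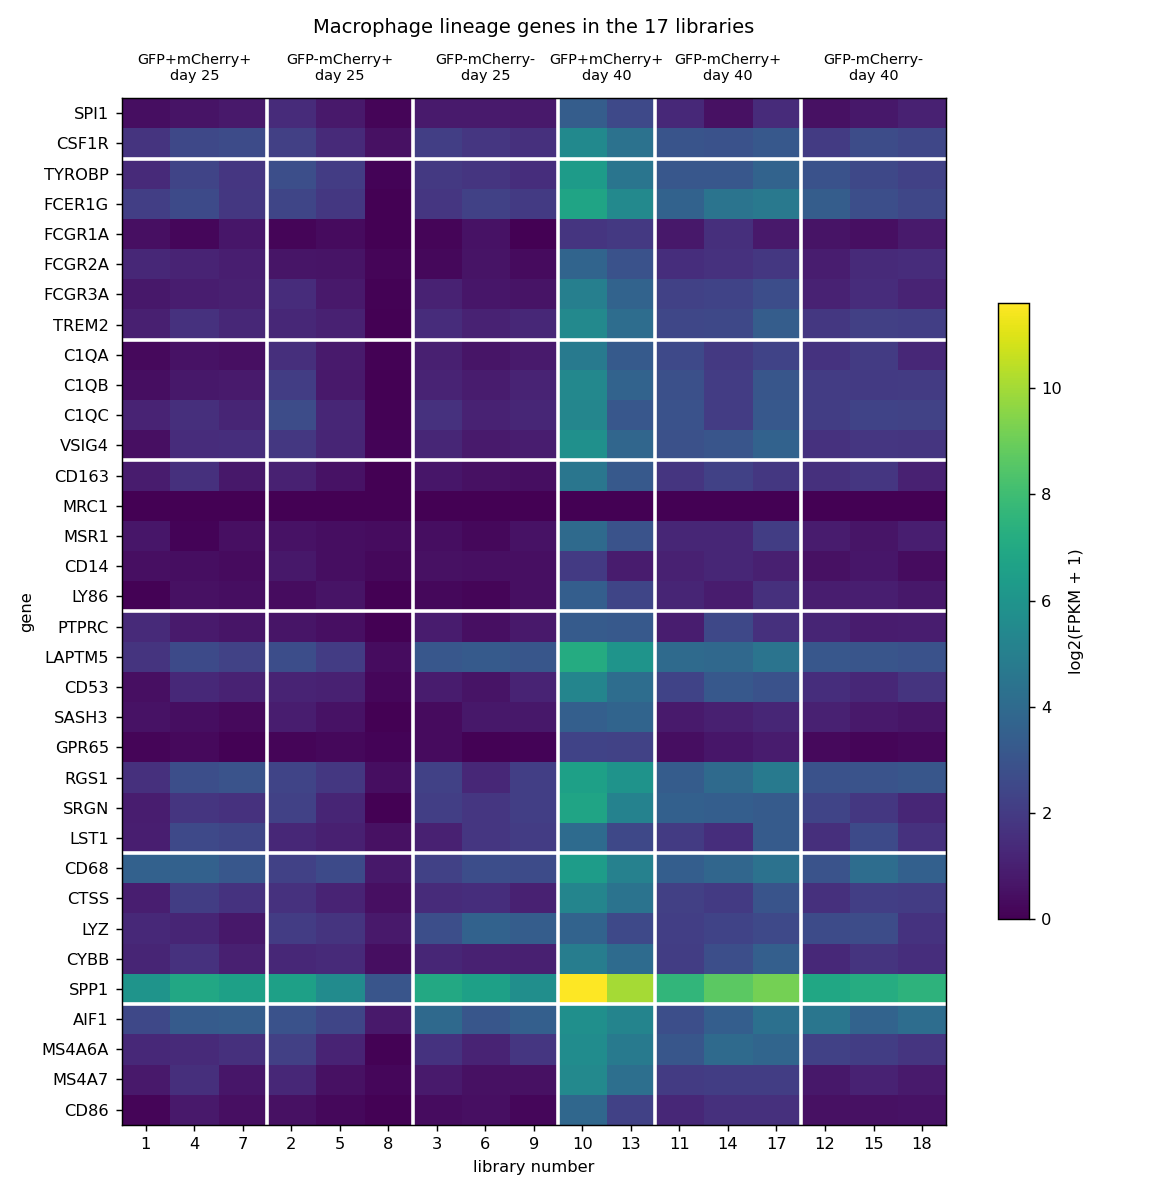
Heat map of the 34 genes (rows, in blocks by role) in the 17 libraries (columns, in blocks by sorted population and day), coloured by log2(FPKM + 1). Libraries 10 and 13 are the brightest columns, library 8 is the darkest, SPP1 is the brightest row and MRC1 is dark throughout.

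The master regulator SPI1 was low before day 40. It was at 0.33, 0.51 and 0.74 FPKM in GFP+mCherry+, 1.66, 0.75 and 0.11 in GFP-mCherry+ and 0.80, 0.77 and 0.73 in GFP-mCherry- libraries of day 25. At day 40 it stood at 9.67 and 4.92 in GFP+mCherry+, 1.56, 0.42 and 1.69 in GFP-mCherry+ and 0.45, 0.69 and 1.06 in GFP-mCherry- libraries. Only the GFP+mCherry+ libraries of day 40 were above 2 FPKM, and the other groups overlapped.

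CSF1R, the growth factor receptor, was at 2.30, 4.68 and 5.18 FPKM in GFP+mCherry+, 3.53, 1.61 and 0.43 in GFP-mCherry+ and 3.42, 2.57 and 2.06 in GFP-mCherry- libraries of day 25. At day 40 it was at 44.4 and 19.6 in GFP+mCherry+, 7.15, 6.49 and 8.04 in GFP-mCherry+ and 3.10, 5.57 and 4.59 in GFP-mCherry- libraries. The 3 populations of day 40 did not overlap, in the order GFP+mCherry+, GFP-mCherry+, GFP-mCherry-. The mean at day 40 was 7.89 times that at day 25 in GFP+mCherry+ cells. Of its ligands, CSF1 was at 6.57 to 15.2 FPKM in the 17 libraries and IL34 at 0.178 to 1.14. In the libraries with the most CSF1R, CSF1 was at 10.0 FPKM in library 10 and 8.89 in library 13.

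The ITAM adaptors had higher levels per length than SPI1. TYROBP, which pairs with TREM2, was at 1.63, 4.23 and 2.56 FPKM in GFP+mCherry+, 5.88, 3.13 and 0.09 in GFP-mCherry+ and 2.79, 2.42 and 1.89 in GFP-mCherry- libraries of day 25. Its day 40 values were 79.9 and 21.6, then 7.86, 7.91 and 12.1, then 6.60, 4.67 and 3.71 FPKM in the same order of populations. FCER1G, the adaptor of Fc receptors, was at 3.40, 5.00 and 2.68 FPKM, then 4.44, 2.69 and 0, then 2.54, 3.71 and 2.86 at day 25, in that order again. For FCER1G the GFP-mCherry+ libraries of day 40, at 11.7, 21.2 and 24.5 FPKM, lay between 107 and 43.5 in GFP+mCherry+ and 9.75, 5.84 and 4.60 in GFP-mCherry- libraries. The one value of 0 for FCER1G was in library 8.

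TREM2, a lipid-sensing receptor of macrophages and microglia, was at 1.00, 2.12 and 1.44 FPKM in GFP+mCherry+, 1.41, 1.07 and 0 in GFP-mCherry+ and 1.78, 1.16 and 1.48 in GFP-mCherry- libraries of day 25. It was at 42.9 and 16.4 FPKM, then 4.60, 4.68 and 9.76, then 2.70, 3.62 and 3.48 at day 40. The day 40 populations again did not overlap. Of the receptors for antibody Fc, FCGR3A reached 31.0 FPKM and FCGR2A 12.4 in library 10. FCGR1A reached 2.40 in library 10 and 2.77 in library 13, where its near-identical copy FCGR1B was at 2.96 FPKM, so reads of the pair may have been split.

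The complement genes C1QA, C1QB and C1QC encode the chains of C1q, which macrophages secrete and which tags debris. C1QA was at 0.22, 0.48 and 0.41 FPKM in GFP+mCherry+, 1.98, 0.78 and 0.03 in GFP-mCherry+ and 1.01, 0.59 and 0.80 in GFP-mCherry- libraries of day 25, and at 25.7 and 8.83, then 4.92, 2.75 and 4.06, then 2.20, 3.02 and 1.45 at day 40. C1QB was at 0.33, 0.69 and 0.77, then 3.29, 0.74 and 0.03, then 1.19, 0.84 and 1.24 FPKM at day 25, and at 41.5 and 11.8, then 6.19, 3.20 and 7.61, then 3.16, 2.93 and 3.10 at day 40. With means of 0.370 and 0.599 FPKM at day 25, these had the largest ratios between the days in GFP+mCherry+ cells, 46.7 for C1QA and 44.5 for C1QB.

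C1QC had the largest ratio between the GFP+mCherry+ libraries of day 40. It was at 1.22, 1.95 and 1.30 FPKM in GFP+mCherry+, 5.40, 1.35 and 0.05 in GFP-mCherry+ and 2.1, 1.19 and 1.38 in GFP-mCherry- libraries of day 25, and at 38.8 and 7.99, then 6.61, 3.22 and 8.27, then 3.34, 4.09 and 3.82 at day 40. Library 13 lay below library 17 of the GFP-mCherry+ cells, so those groups overlapped. VSIG4, the complement receptor of resident macrophages, was at 56.1 FPKM in library 10 and 13.4 in library 13, and at most 11.7 elsewhere.

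Scavenger and pattern receptors did not all reach the same level. CD163, the receptor for haemoglobin bound to haptoglobin, was at 0.87, 2.08 and 0.67 FPKM in GFP+mCherry+, 1.11, 0.47 and 0.009 in GFP-mCherry+ and 0.62, 0.44 and 0.33 in GFP-mCherry- libraries of day 25, and at 22.4 and 8.41, then 2.43, 3.71 and 2.67, then 2.07, 2.59 and 1.06 at day 40. CD14, the co-receptor for bacterial lipopolysaccharide and a marker of monocytes, was at 0.173 to 0.704 FPKM at day 25, and at 2.92 and 0.843, then 1.10, 1.33 and 1.05, then 0.45, 0.65 and 0.30 at day 40. MRC1, the mannose receptor, was at no more than 0.0211 FPKM in any library, and its near-identical copy MRC1L1 at no more than 0.373 FPKM, and reads of the pair may have been split. MSR1 (at 15.0 and 6.87 FPKM) and LY86 (at 10.1 and 4.28), a partner of a Toll-like receptor relative, were highest in libraries 10 and 13.

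Among general white blood cell genes, LAPTM5 encodes a lysosomal membrane protein of blood cells. LAPTM5 was at 2.36, 5.03 and 3.94 FPKM in GFP+mCherry+, 5.74, 3.17 and 0.30 in GFP-mCherry+ and 7.74, 8.76 and 7.54 in GFP-mCherry- libraries of day 25, and at 141 and 62.1, then 14.9, 14.1 and 21.1, then 7.78, 7.37 and 6.55 at day 40. SRGN, the proteoglycan of secretory granules, was at 0.93, 2.5 and 2.16, then 3.76, 1.33 and 0, then 3.51, 2.61 and 3.49 FPKM at day 25, and at 106 and 34.2, then 10.9, 9.90 and 8.89, then 4.20, 2.69 and 1.39 at day 40. For both genes the GFP-mCherry- libraries of the days overlapped, with means of 8.02 and 7.23 FPKM for LAPTM5 and 3.20 and 2.76 for SRGN at day 25 and day 40.

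PTPRC encodes CD45, the phosphatase carried by nearly all white blood cells. It was at 1.57, 0.79 and 0.57 FPKM in GFP+mCherry+, 0.55, 0.37 and 0 in GFP-mCherry+ and 0.83, 0.39 and 0.73 in GFP-mCherry- libraries of day 25, and at 8.92 and 8.43, then 0.92, 4.69 and 2.03, then 1.28, 0.84 and 0.88 at day 40. Unlike most of the set, PTPRC was nearly equal in libraries 10 and 13. LST1 was one of the few without a clear day 40 level, at 15.3 and 4.73 FPKM in GFP+mCherry+ cells of day 40 beside 0.956, 4.97 and 4.31 at day 25.

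SPP1, the secreted protein osteopontin, had the highest mean of the 34 genes in all 6 groups. It was at 62.6, 123 and 96.4 FPKM in GFP+mCherry+, 96.0, 46.7 and 7.40 in GFP-mCherry+ and 125, 93.9 and 51.9 in GFP-mCherry- libraries of day 25, and at 3082 and 1031, then 197, 411 and 576, then 120, 143 and 180 at day 40. SPP1 is also made by other cell types. CD68, a lysosomal glycoprotein, was at 11.1, 11.2 and 7.81 FPKM, then 3.68, 5.16 and 0.68, then 3.80, 5.62 and 5.29 at day 25, and at 83.9 and 33.6, then 10.2, 13.1 and 19.6, then 6.77, 16.5 and 10.8 at day 40.

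LYZ, the enzyme lysozyme, had a pattern of its own. It was at 1.54, 1.32 and 0.69 FPKM in GFP+mCherry+, 3.21, 2.31 and 0.73 in GFP-mCherry+ and 5.92, 11.5 and 9.68 in GFP-mCherry- libraries of day 25, and at 12.0 and 4.94, then 3.47, 3.96 and 4.83, then 5.18, 5.57 and 2.26 at day 40. Its highest group mean was that of the GFP-mCherry- cells of day 25 (9.02 FPKM), while for the 33 other genes it was that of the GFP+mCherry+ cells of day 40.

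AIF1, an actin-binding protein of macrophages, had day 25 levels above those of the membrane protein MS4A7. AIF1 was at 4.69, 9.00 and 9.78 FPKM in GFP+mCherry+, 6.63, 4.40 and 0.72 in GFP-mCherry+ and 14.7, 7.62 and 10.5 in GFP-mCherry- libraries of day 25, and at 53.1 and 36.5, then 5.94, 10.1 and 18.5, then 22.2, 12.0 and 16.5 at day 40. MS4A7 was at 0.73, 1.98 and 0.64, then 1.47, 0.43 and 0.13, then 0.80, 0.43 and 0.42 FPKM at day 25, and at 42.9 and 17.6, then 2.99, 3.36 and 3.33, then 0.67, 1.17 and 0.76 at day 40. CD86, a co-stimulatory ligand for T cells, was at 13.5 and 3.77 FPKM in libraries 10 and 13 and at most 2.08 elsewhere.

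**Figure D2:**
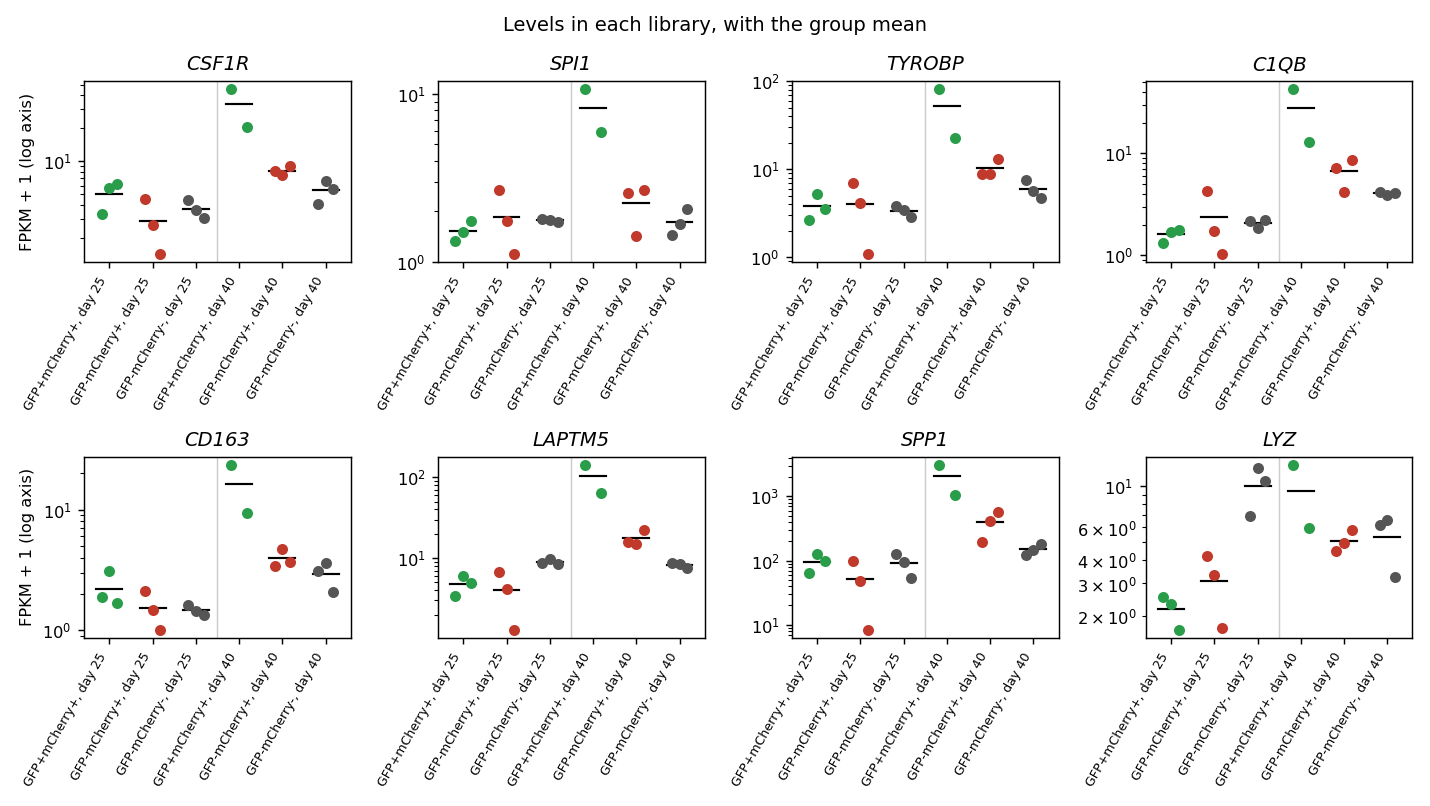
FPKM + 1 on a log axis for 8 of the genes, with each library as a point and the group mean as a bar, day 25 left of the grey line and day 40 right of it. The 2 GFP+mCherry+ libraries of day 40 lie above every other library for CSF1R, SPI1, TYROBP, C1QB, CD163, LAPTM5 and SPP1, and for LYZ they do not.

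Counted over the 34 genes at day 40, 30 had both GFP+mCherry+ libraries above all GFP-mCherry+ libraries, beside 26.5% of the 14845 tested genes. The 4 that did not were C1QC, CD14, LST1 and MRC1. Against GFP-mCherry- cells the count was 31, beside 21.8% of tested genes, and GFP-mCherry+ cells lay above GFP-mCherry- cells for 20, beside 17.5%. Between the days, day 40 lay above day 25 without overlap for 32 genes in GFP+mCherry+ (13% of tested genes), 28 in GFP-mCherry+ (6.24%) and 18 in GFP-mCherry- cells (9.44%). Nothing is read from these counts, since the choice of genes used those libraries, and the comparisons share libraries.

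The size of the difference between the days is also given as a description only, because the day 40 rise chose some of the genes. It was ordered GFP+mCherry+, GFP-mCherry+, GFP-mCherry-. The median difference between the days, on the log2(FPKM + 1) scale, which understates the change of low genes, was 3.11 in GFP+mCherry+, 1.43 in GFP-mCherry+ and 0.52 in GFP-mCherry- cells, beside medians of -0.04, -0.03 and -0.09 over all tested genes. It reached 1 log2 unit for 33, 26 and 2 of the 34, beside 3.91%, 1.22% and 2.6% of tested genes. Without library 10 the median in GFP+mCherry+ cells was 2.58, and without library 13 it was 3.59. In GFP-mCherry+ cells it was 1.13 without library 8 and 1.86 without library 2. By role, the medians in GFP+mCherry+ cells ran from 2.52 for SPI1 and CSF1R to 3.63 for the 4 complement genes.

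At day 25, where tests were made, few of the genes passed the threshold between populations, which does not show that the rest were alike. The spread was pooled over all 17 libraries, and the counts are not read as a result about the set. Day 25 was the baseline of the day 40 choice, and the 3 comparisons share libraries. With limma on log2(FPKM + 1) over all tested genes, CD68 was higher in GFP+mCherry+ than in GFP-mCherry+ cells, by 1.58 ± 0.44 log2 units (SE; adjusted p = 0.0191). It was 1 gene of 34 called higher, beside 12% of tested genes, and 0 were called lower, beside 8.38%. The other 4 with an unadjusted p under 0.05 did not pass. They were FCGR2A (0.67 log2 units, limma adjusted p = 0.0555), CSF1R (0.93, 0.095), SPP1 (1.44, 0.143) and AIF1 (1.04, 0.137). FCGR2A was at 1.43, 1.24 and 0.96 FPKM against 0.553, 0.536 and 0.0988, without overlap. The CD68 call was lost without library 8, at 1.02 log2 units and a limma adjusted p of 0.1, and also without library 1 (0.0587) or library 4 (0.0557).

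Between GFP-mCherry+ and GFP-mCherry- cells of day 25, 3 of the 34 genes were lower, beside 16.4% of tested genes, and 0 were higher, beside 12.1%. LYZ was lower by 1.75 ± 0.37 log2 units (difference -1.75, limma adjusted p = 0.00211), LAPTM5 by 1.44 ± 0.44 (difference -1.44, adjusted p = 0.0227) and AIF1 by 1.49 ± 0.48 (difference -1.49, adjusted p = 0.028). Without library 8 the difference was -1.38 for LYZ, which stayed past the threshold, -0.76 for LAPTM5 (limma adjusted p = 0.118) and -0.85 for AIF1 (adjusted p = 0.163). Leaving out library 9 also ended the calls of LAPTM5 and AIF1, as did leaving out library 6 for LAPTM5 and library 3 for AIF1.

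LYZ was also the 1 gene called between GFP+mCherry+ and GFP-mCherry- cells of day 25, lower in GFP+mCherry+ by 2.18 ± 0.37 log2 units (difference -2.18, limma adjusted p = 0.00143), beside 5.27% of tested genes lower and 5.78% higher. All 3 GFP-mCherry- libraries lay above all 3 GFP+mCherry+ libraries, and the call held with each library left out in turn. SPI1 gave differences of -0.19, -0.03 and -0.22 in the 3 comparisons, with limma adjusted p-values of 0.715, 0.96 and 0.709, which does not show that its levels were alike.

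Libraries of a group could differ in the same direction for most of the genes. Library 2 exceeded library 5 and library 5 exceeded library 8 for 28 of the 34 genes, beside 28.7% of tested genes. Library 8 was the lowest of all 17 libraries for 29, beside 7.4%. The ratio of library 2 to library 8 had a median of 11.0 over the 27 genes above 0 in library 8. Cardiomyocyte markers summed to 19681 FPKM in library 2, 24384 in library 5 and 25169 in library 8, and their part in this was not tested.

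Between the GFP+mCherry+ libraries of day 40, library 10 exceeded library 13 for 32 of the 34 genes, with a median ratio of 2.43, beside 48.7% of tested genes and a median of 0.983. The ratio ran from 0.850 for SASH3 and 1.06 for PTPRC to 4.20 for VSIG4 and 4.86 for C1QC. It was at least 2 for 22 genes, beside 8.86% of tested genes. Summed cardiomyocyte markers were at 10542 FPKM in library 10 and 6550 in library 13, and endothelial markers at 241 and 218.

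**Figure D3:**
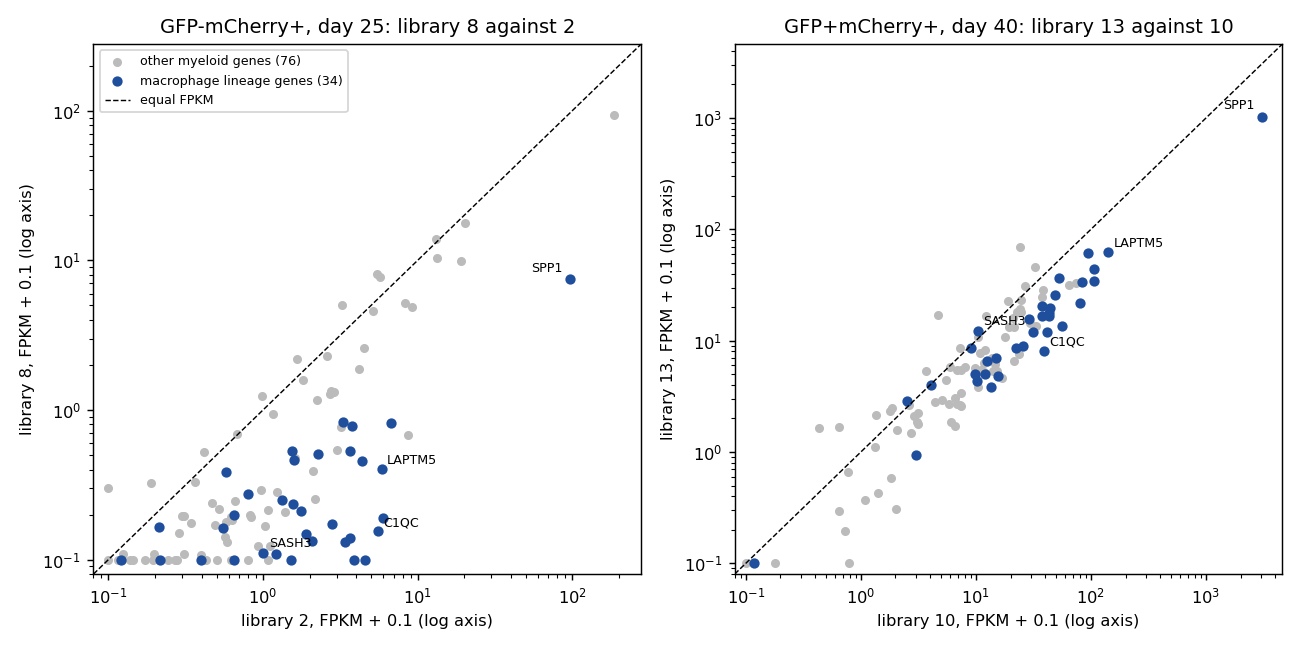
FPKM + 0.1 on log axes of 2 libraries of a group against each other, for the 34 macrophage lineage genes (blue) and 76 other myeloid genes (grey), with the line of equal FPKM. Blue points lie below the line for library 8 against library 2, and for 32 genes in library 13 against library 10, while SASH3 and FCGR1A lie just above it.

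How alike the genes were was measured by Pearson's r of log2(FPKM + 1) with the mean z-score of SPI1, CSF1R, TYROBP, FCER1G, PTPRC and LAPTM5, leaving a gene out of its own reference. The 17 points fall into the study's groups and share libraries, so r is a description. The reference genes belong to the set, and some of the set were chosen for a day 40 rise. A high r over all libraries was thus favoured in advance, and nothing is read from it. Over the 33 tested genes r had a median of 0.957, the lowest being LYZ at 0.526, and 31 were at 0.8 or more, beside 1.1% of tested genes. Without libraries 10 and 13 the median was 0.862. On deviations from the group means it was 0.775, with FCGR1A at 0.0558 as the lowest. The genes outside the set with the highest r over the 17 libraries were RNASE6 (0.980), PLA2G7, CCR1, ALOX5AP, C3AR1, LAIR1, HLA-DMB, RNASE1, ADORA3, LCP2, NCKAP1L and FCGR2B (0.956). RNASE6, a secreted ribonuclease, was at 41.2 and 27.7 FPKM in libraries 10 and 13 and at most 9.02 elsewhere.

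The rest of the myeloid programme was read from 76 further genes, none of them in the set, of which 65 were tested. Of these, 12 passed the filter on low values only through libraries 10 and 13, where they are high, so the filter favoured their calls. The 76 were also chosen with earlier results of these libraries known. In GFP+mCherry+ cells 40 of the 76 rose from day 25 to day 40 and 0 fell, beside 2.18% and 1.88% of tested genes (limma). With a filter that used only the 15 other libraries, added after the values were seen, 53 of the 76 were tested and 29 rose, beside 1.52% of the genes then tested. With a filter on the 9 libraries of day 25 alone, also added then, 39 were tested and 15 rose, beside 1.11%. Without library 10 the count was 36. The signalling gene LCP2 was at 0.310, 1.10 and 0.639 FPKM at day 25 and at 29.7 and 14.3 at day 40, a rise of 3.71 log2 units (limma adjusted p = 1.59e-05). The integrin ITGAL was at 0.0622, 0.602 and 0.375 FPKM, then 10.3 and 10.8, a rise of 3.12 (limma adjusted p = 1.59e-05). Both had day 40 libraries far above those of day 25.

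By role, 5 of 6 integrin and adhesion genes, 15 of 26 surface receptors and lipid mediators, 13 of 26 signalling genes, 2 of 4 partners of the phagocyte oxidase, 3 of 5 cytokine receptors and 2 of 9 transcription factors rose in GFP+mCherry+ cells. With the filter on the 15 other libraries these counts were 5, 12, 10, 1, 1 and 0, of 5, 15, 21, 2, 3 and 7 genes tested. Those that did not pass in the last group included MAF, at 25.4, 22.7 and 26.9 FPKM at day 25 and 26.8 and 31.1 at day 40, and IRF8, at 9.01, 17.3 and 24.5 and then 24.0 and 18.98. ALOX5AP, which serves leukotriene synthesis, rose by 3.61 log2 units (limma adjusted p = 7.45e-05), from 3.97, 3.38 and 2.20 to 73.4 and 32.8 FPKM. STAB1, a scavenger receptor shared with endothelium, rose by 3.67 (limma adjusted p = 7.72e-05).

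In GFP-mCherry+ cells 11 of the 76 rose, beside 0.633% of tested genes, and 1 fell, beside 3.91%. LCP2 rose by 1.73 (limma adjusted p = 0.00793) and ALOX5AP by 1.97 (adjusted p = 0.0095), while CYBA, a subunit of the oxidase found in many cells, fell by 1.66 (adjusted p = 0.0133). The total of 12 was 0 without library 14, 1 without 5, 3 without 17, 4 without 8, 6 without 2 and 20 without 11. With the filter on day 25 libraries 4 rose and 1 fell, of 39 tested, beside 0.468% and 4.04%. In GFP-mCherry- cells limma called 0 in either direction, with 3 at an unadjusted p under 0.05, beside 1.56% of tested genes higher and 2.32% lower.

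The change between the days was compared between populations by the interaction, a comparison added after values had been seen. Against GFP-mCherry- cells 29 of the 76 changed more upward in GFP+mCherry+ cells, beside 0.977% of tested genes, and 0 changed more downward, beside 0.263%, led by LCP2 at 3.82 log2 units (limma adjusted p = 0.00112). This count was 20 of 53 tested with the filter on the 15 other libraries, beside 0.608%, and 10 of 39 with the filter on day 25, beside 0.307%. It was 15 without library 10, 19 without library 6 and 1 at a pseudocount of 0.1. Against GFP-mCherry+ cells limma called 0 of the 76, with 41 at an unadjusted p under 0.05, beside 0.0135% of tested genes higher and 0% lower.

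**Figure D4:**
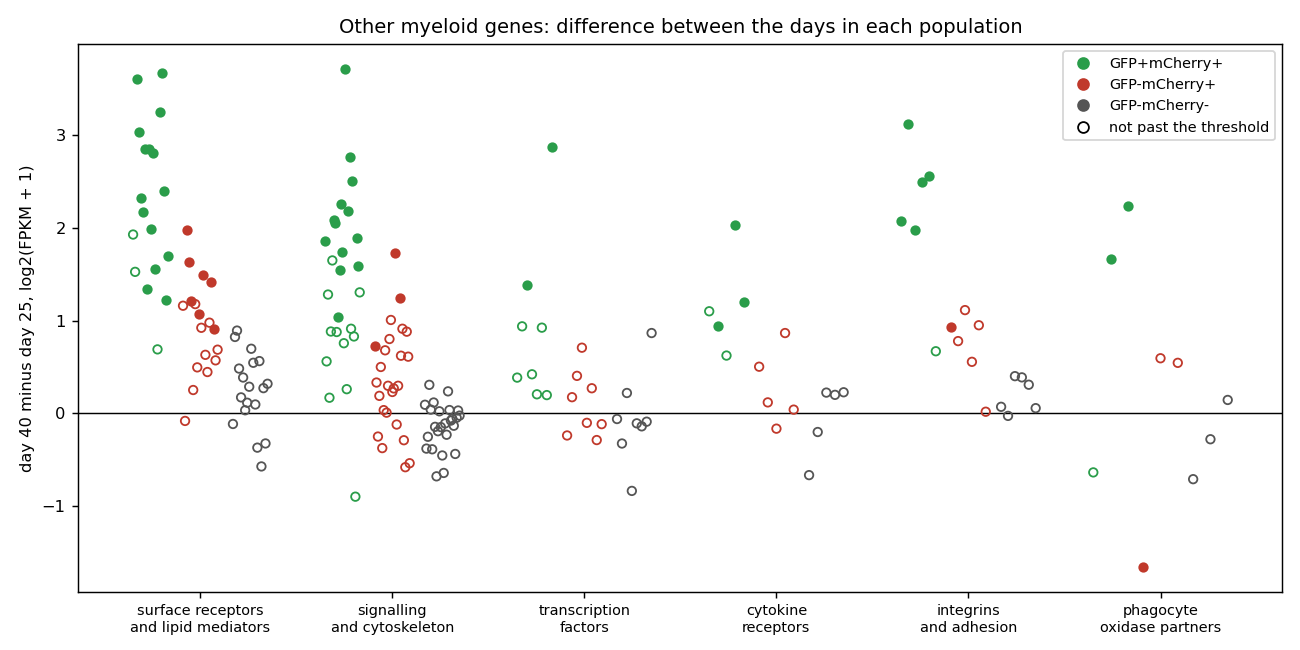
Difference between day 40 and day 25 in log2(FPKM + 1) for the tested genes of the 76 other myeloid genes, by role (x axis) and population (colour), filled where the limma adjusted p is under 0.05. Filled points number 40 for GFP+mCherry+, 12 for GFP-mCherry+ (1 below 0, CYBA) and 0 for GFP-mCherry- cells.

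Between populations at day 40, 55 of the 76 were higher in GFP+mCherry+ than in GFP-mCherry+ cells and 0 lower, beside 16.2% and 9.29% of tested genes. They included the receptor CSF3R (3.17 log2 units, limma adjusted p = 3.85e-05), at 32.8 and 45.9 FPKM against 3.82, 3.77 and 2.75, and CD4 (2.23, adjusted p = 0.000126), at 21.0 and 15.8 FPKM against 3.21, 2.71 and 3.39. Against GFP-mCherry- cells 48 were higher and 0 lower, beside 7.04% and 4.76%. Without library 10 these totals were 41 and 38. With the filter on the 15 other libraries they were 44 and 36 of 53 tested, beside 15.4% and 6.28%, and with that on day 25 they were 30 and 22 of 39, beside 15.1% and 5.95%. Between GFP-mCherry+ and GFP-mCherry- cells 8 were higher and 6 lower, beside 13.3% and 18.5%.

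At day 25, in GFP+mCherry+ against GFP-mCherry+ cells, 10 of the 76 were higher and 0 lower, beside 12% and 8.38% of tested genes. The smallest adjusted p was that of CSF3R, at 24.9, 24.7 and 25.1 FPKM against 3.14, 3.93 and 4.96 (2.38 log2 units, limma adjusted p = 0.000124). MAF (1.68, adjusted p = 0.00093) and ALOX5 (2.17, adjusted p = 0.00647) were also among them. CSF3R and MAF were not called between the days in GFP+mCherry+ cells, and MAF is also expressed outside the blood. Without library 8 the total was 6. In GFP-mCherry+ against GFP-mCherry- cells of day 25, 2 were higher and 14 lower, beside 12.1% and 16.4%, in all 10 without library 8. In GFP+mCherry+ against GFP-mCherry- cells 3 were higher and 3 lower, beside 5.78% and 5.27%. Shares this near those of all genes are not read as a result about the list.

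Markers of other blood lineages were measured in the same libraries. The T and NK cell genes CD2 and NCR1, the dendritic cell genes CLEC9A, CLEC10A, FCER1A and CD207, the mast cell genes TPSAB1, MS4A2 and CMA1, and the neutrophil genes ELANE and CEACAM8 were at no more than 0.1 FPKM in all 17 libraries. Of the 14 T and NK markers, 10 were below 1 FPKM in every library, as were 6 of 8 dendritic cell markers and 7 of 14 neutrophil markers. ZAP70 and NKG7 had the highest means of the T and NK list. The sum of that list was 14.0 FPKM in library 10 and 6.30 in library 13, beside 9.38 to 12.9 in GFP+mCherry+ libraries of day 25. It was 1.15 to 5.47 in GFP-mCherry+ and 3.17 to 7.63 in GFP-mCherry- libraries.

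Summed neutrophil markers, whose highest genes were S100A8 and S100A9, were 29.5 and 27.8 FPKM in libraries 10 and 13 and 14.6 to 24.5 in GFP+mCherry+ libraries of day 25. In GFP-mCherry+ libraries they ranged from 12.6 to 37.4 at day 25 and from 40.3 to 59.1 at day 40, and in GFP-mCherry- libraries from 9.79 to 22.8 over both days. Summed dendritic cell markers, with FLT3 the highest, were 6.69 and 5.99 FPKM in libraries 10 and 13, 3.39 to 6.35 in GFP+mCherry+ libraries of day 25 and 0.428 to 0.799 in GFP-mCherry+ libraries of both days. Summed megakaryocyte markers were 13.9 and 24.0 FPKM in libraries 10 and 13 and at most 16.4 elsewhere. These sums were thus high in some libraries with many macrophage transcripts, and the neutrophil sum was highest in GFP-mCherry+ cells of day 40.

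Some sums of other cell types differed between groups. Summed endothelial markers were 228, 42.3 and 72.0 FPKM in GFP+mCherry+ libraries of day 25 and 241 and 218 at day 40, while GFP-mCherry+ libraries ranged from 19.5 to 57.6 over both days. GFP-mCherry- libraries ranged from 76.9 to 142 FPKM at day 25 and from 86.5 to 159 at day 40. The endothelial sum thus spread widely within the GFP+mCherry+ libraries of day 25, and the GFP-mCherry- libraries lay within that spread. Summed mast cell markers, whose highest genes were HPGDS and CPA3, were 13.4 and 7.17 FPKM in libraries 10 and 13 and at most 4.14 elsewhere. Summed blood progenitor markers were 24.3 and 35.5 FPKM in libraries 10 and 13, and 12.9 to 16.2 in GFP+mCherry+ libraries of day 25. In GFP-mCherry+ libraries they ran from 6.05 to 11.3 at day 25 and from 7.70 to 19.9 at day 40. In GFP-mCherry- libraries they ran from 28.7 to 44.8 at day 25, where the macrophage genes were low, and from 19.1 to 31.5 at day 40. Summed erythroid markers were at 0.852 to 6.29 FPKM over the 17 libraries. Summed osteoclast markers, with ACP5 and CTSK the highest, were 35.1 to 35.5 FPKM in libraries 10 and 13 and 21.0 to 28.0 in GFP+mCherry+ libraries of day 25. They ran from 40.7 to 48.0 in GFP-mCherry- libraries of day 25 and from 20.7 to 26.9 in those of day 40. GFP-mCherry+ libraries ranged from 6.13 to 14.9 over both days. The part of these cell types in the macrophage levels was not tested.

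**Figure D5:**
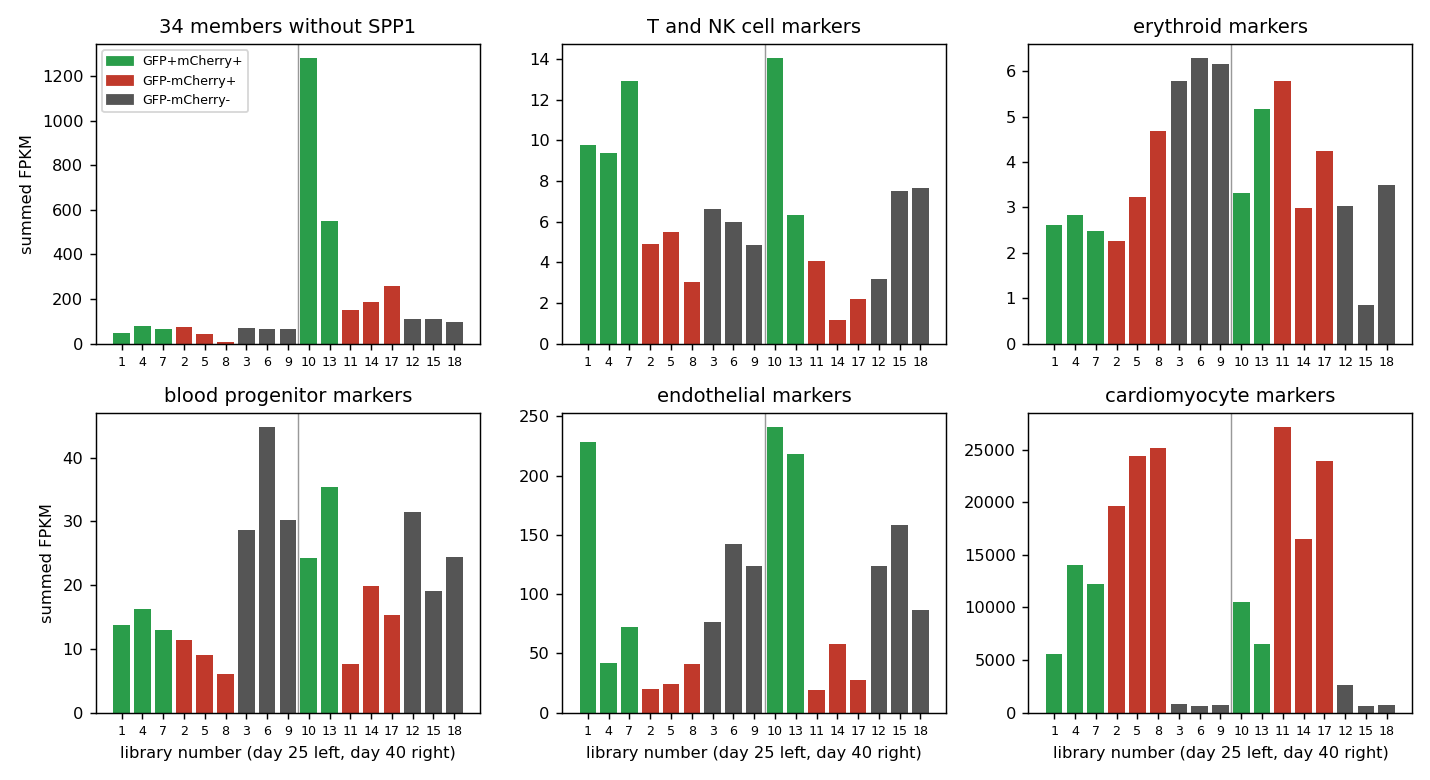
Summed FPKM per library (bars, coloured by population, day 25 left of the grey line) of the 34 genes without SPP1 and of marker lists of 5 other cell types, each on an axis of its own from 0. The 34 genes peak in library 10 (1281 FPKM) and library 13 (550), while T and NK cell markers stay at or below 14.0 FPKM in total and cardiomyocyte markers are highest in GFP-mCherry+ libraries.

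Lysosomal genes of the kind found in most cell types were counted in the same way. Of 17 in the table, 2 rose and 0 fell in GFP+mCherry+ cells between the days, beside 2.18% and 1.88% of tested genes. In GFP-mCherry+ cells 0 rose and 1 fell, beside 0.633% and 3.91%. In GFP-mCherry- cells limma called 0, with 2 at an unadjusted p under 0.05, beside 1.56% higher and 2.32% lower. At day 40, 8 of the 17 were higher in GFP+mCherry+ than in GFP-mCherry+ cells and 0 lower, beside 16.2% and 9.29%. Their median difference between the days in GFP+mCherry+ cells was 0.25 log2 units, beside 3.11 for the 34 genes. The difference between these medians was not tested.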

How the data were processed

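The 17 libraries were prepared with a TruSeq RNA kit, as the labels' protocols state. Values are FPKM computed and deposited by the authors. The table names no unit in its header. That it holds FPKM follows from Cufflinks 2.1.1, listed with bcl2fastq 2.19, cutadapt and STAR 2.5.2b per the submitters' processing notes, and from the range of values. These notes give hg19 as the build and no settings. Read counts and depth were not used here, so the precision of low values is unknown.

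The 20368 rows were merged by name into 20218 genes. A model with a mean per group was fitted with limma 3.58.1 in R 4.3.3 to log2(FPKM + 1) of all 17 libraries (trend, 11 residual degrees of freedom), for the 14845 genes that reached 1 FPKM in 2 or more libraries, adjusted by Benjamini-Hochberg within each comparison, with a threshold of 0.05. A check of the fit on simulated data added shifts of 1 or 2 log2 units to independent noise. The shifted genes had a mean log2(FPKM + 1) above 2. That check does not cover lower genes, or libraries in which many genes shift together. The 34 genes and all lists were chosen with earlier results of these data known, and the alternatives in the closing section were tried on the same basis. Genes with values per library were a fixed core of the 34 and any called at day 25. Of the other lists they were the highest in mean FPKM, the smallest adjusted p, and for likeness the 12 highest outside the set. SASH3, GPR65, VSIG4, MSR1, LY86, LST1, CD86, FCGR1A, FCGR2A, FCGR3A and the genes SHOX2, HCN4 and MRC1L1 were added after values were seen.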

Additional observations from a re-analysis of the deposited data

Results flagged for a closer look

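For 29 of the 76 other myeloid genes the change between the days differed between GFP+mCherry+ and GFP-mCherry- cells, by a test of the difference itself. All 29 changed more upward in GFP+mCherry+ than in GFP-mCherry- cells (limma, adjusted p under 0.05), beside 0.977% of tested genes upward and 0.263% downward. The count was 20 of 53 tested genes when the filter on low values left out libraries 10 and 13, beside 0.608% upward, 10 of 39 when it used day 25 libraries alone, beside 0.307%, 15 without library 10, 19 without library 6 and 1 at a pseudocount of 0.1. LCP2 (3.82 log2 units, limma adjusted p = 0.00112), ITGAL (3.15, adjusted p = 0.00139), NCKAP1L (2.73, adjusted p = 0.00141) and STAB1 (4.24, adjusted p = 0.00221) had the smallest adjusted p-values. Against GFP-mCherry+ cells limma called 0 of the 76, beside 0.0135% of tested genes higher and 0% lower, which does not show equal changes. Both contrasts were added after values had been seen, and the 76 genes were chosen with earlier results of these libraries known. The GFP+mCherry+ group of day 40 had 2 libraries. Groups of 2 or 3 libraries are too small for a test of a single outlying library.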

How the results depend on the processing

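Of 45 alternative counts of the 34 genes called at day 25, 34 stayed within 1.5 times the main count. For the 76 other myeloid genes 123 of 152 did. These counts pool both directions, so they could not show a reversal. The sign reversed for 0 of 51 alternative median differences of the 34 genes. These medians all involve day 40 libraries, whose levels chose some of the genes, so a reversal was unlikely from the start. The sign also reversed for 0 of 75 alternative differences of single genes called at day 25. In GFP+mCherry+ against GFP-mCherry+ at day 25, 1 gene was called, 2 at a pseudocount of 0.1 and 0 to 3 with each library left out. In GFP-mCherry+ against GFP-mCherry- cells 3 were called, 1 with only the compared groups in the fit and 1 to 5 with a library left out. In GFP+mCherry+ against GFP-mCherry- cells 1 was called, 2 at a pseudocount of 0.1 and 4 with only the compared groups. With each library left out the other myeloid counts in these 3 comparisons ranged from 6 to 9, 10 to 15 and 3 to 5 (main 10, 16 and 6), and a filter at 5 FPKM, which tests fewer genes, gave 10 in place of 16. At day 40 the main counts of 55, 14 and 48 ranged from 41 to 53, 7 to 13 and 38 to 47. The filter at 5 FPKM gave 32 and 24 in place of 55 and 48, and only the compared groups gave 32 in place of 55. Between the days the counts of 40, 12 and 0 ranged from 36 to 40, 0 to 20 and 0 to 0. The filter gave 19 in place of 40, and only the compared groups gave 0 in place of 12 and 1 in place of 0. A filter on day 25 libraries alone, chosen after seeing the data, tested 39 of the 76 and gave 30 in place of 55, 22 in place of 48, 15 in place of 40, 5 in place of 12 and 10 in place of the 29 of the interaction against GFP-mCherry- cells. That 29 was 1 at a pseudocount of 0.1, 8 with the filter at 5 FPKM, 24 with the replicate block and 15 to 33 with a library left out (15 without library 10, 19 without library 6). The count of 12 was 6 without library 2, 1 without 5, 4 without 8, 20 without 11, 0 without 14 and 3 without 17. The median difference of the 34 genes between the days was 4.06, 2.5007 and 0.79 at a pseudocount of 0.1, in place of 3.11, 1.43 and 0.52. With a library left out it ranged from 2.58 to 3.59, 1.13 to 1.86 and 0.46 to 0.57, and at day 40 between populations from 1.25 to 2.47, 0.53 to 0.81 and 1.99 to 3.12. Where 1 library was left in a group, it was assumed to vary like the others. The AIF1 call had a limma adjusted p of 0.0535 with no filter and 0.0559 with only the compared groups, where LAPTM5 had 0.0654. The labels do not say whether libraries with consecutive numbers were paired, and the main fit did not pair them. Within sets of consecutive numbers, deviations from the group means correlated over 0.1 for 10 of 16 pairs (from -0.12 to 0.46). These correlations could not settle whether the samples were paired. With sets of consecutive numbers as a replicate block the other myeloid counts were 11, 16 and 6 at day 25, 56, 14 and 49 at day 40 and 39, 10 and 0 between the days, and those of the 34 genes stayed at 1, 3 and 1. Setting 41 values listed at 0 to missing touched 0 values of the 34 genes and 0 of the 76 other myeloid genes. MYH6, a gene of the summed cardiomyocyte markers, was listed at 0 in library 17, beside 628 and 520 FPKM in libraries 11 and 14. The sums kept that 0. Where no cause is named above, the cause was not tested. Unknown depth limits every level under about 1 FPKM.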
